A study of Homo sapiens with 8 samples.

Results

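Collagen chains and the enzymes that process them were followed in ribosome profiling libraries of G401, a cell line from a kidney rhabdoid tumor without SMARCB1. The members were chosen by symbol: every gene named COL, a number, A and a number, which gave 44 collagen chains, and the 10 processing genes P4HA1, P4HA2, PLOD1, PLOD2, PLOD3, SERPINH1, LOX, LOXL1, LOXL2 and BMP1. They are 54 of the 20719 genes counted. The 10 processing genes are called enzymes below for short, although SERPINH1 is a chaperone. The study asked whether SMARCB1, a subunit of the mSWI/SNF chromatin remodeler, alters the translation of specific mRNAs when it is re-expressed. All libraries come from G401 cells carrying a Tet-On construct, either for SMARCB1 (the SMARCB1 line) or for GFP (the GFP line), and each line received 0.1 μg/ml doxycycline (Dox) or the matching amount of DMSO for 12 h. This gives 4 groups, SMARCB1 Dox, SMARCB1 DMSO, GFP Dox and GFP DMSO, with 2 libraries in each. Plates of a condition were pooled before ribosomes were isolated, and the experiment was done in duplicate; p-values here measure the spread between these libraries, which may be technical. Each line is a separately engineered population, so the transgene it carries and any other difference between the populations cannot be told apart when the lines are compared. In DMSO neither line had a SMARCB1 footprint, and the GFP line had none with Dox either.

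Collagens are the main structural proteins of the extracellular matrix. Their chains repeat the unit Gly-X-Y, in which every glycine sits at the core of a triple helix built from chains of the same or of partner genes. Fibrillar collagens (types I, II, III, V, XI and relatives) form the fibers of bone, skin and cartilage, network-forming collagens such as type IV build basement membranes, type VI forms beaded filaments, and FACIT collagens such as types IX and XVI attach to the surface of other fibrils. In the endoplasmic reticulum, P4HA1 and P4HA2 hydroxylate prolines, PLOD1, PLOD2 and PLOD3 hydroxylate lysines, and the chaperone SERPINH1 (HSP47) binds the folded helix. Outside the cell BMP1 cleaves the C-propeptide of procollagen, and LOX, LOXL1 and LOXL2 oxidize lysines for cross-linking.

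The repeat can be read directly in the coding sequences on which footprints were counted. The first 20 Gly-X-Y triplets of the longest unbroken run are shown for 4 chains, because COL11A1 held the highest count of footprints of all chains and COL9A1, COL4A5 and COL4A6 had the widest differences between the lines. The sequences come from GRCh38 through the MANE Select transcripts of GENCODE annotation 44, run 5′ to 3′ on the coding strand, and have glycine codons in capitals.
COL11A1, codons 529 to 588: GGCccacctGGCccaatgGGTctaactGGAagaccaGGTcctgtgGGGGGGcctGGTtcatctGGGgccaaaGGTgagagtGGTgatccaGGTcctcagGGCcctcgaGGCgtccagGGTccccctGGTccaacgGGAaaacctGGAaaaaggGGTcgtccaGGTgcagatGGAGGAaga
COL9A1, codons 418 to 477: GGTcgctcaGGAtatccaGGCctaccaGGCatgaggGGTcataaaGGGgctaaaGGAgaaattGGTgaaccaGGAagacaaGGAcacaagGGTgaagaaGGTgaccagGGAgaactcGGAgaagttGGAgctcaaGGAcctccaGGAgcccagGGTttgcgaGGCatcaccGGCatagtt
COL4A5, codons 1249 to 1308: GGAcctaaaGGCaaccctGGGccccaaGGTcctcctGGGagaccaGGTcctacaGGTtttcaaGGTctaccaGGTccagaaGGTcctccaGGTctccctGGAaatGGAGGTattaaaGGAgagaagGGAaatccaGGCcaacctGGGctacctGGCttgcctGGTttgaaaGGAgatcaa
COL4A6, codons 46 to 105: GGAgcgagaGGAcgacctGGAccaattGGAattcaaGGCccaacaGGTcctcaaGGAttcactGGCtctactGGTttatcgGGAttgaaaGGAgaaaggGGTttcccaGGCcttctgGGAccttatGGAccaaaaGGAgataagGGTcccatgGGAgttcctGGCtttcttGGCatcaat
A glycine codon opens every triplet of these stretches. The run goes on for 338 triplets in COL11A1 and for 113 in COL9A1, and it stops after 42 in COL4A5 and 38 in COL4A6, where type IV chains have their known interruptions. Over the 44 chains the longest run ranged from 23 triplets in COL26A1 to 343 in COL3A1, with a median of 60.5, and it was 1 to 3 triplets in the 10 enzymes. Glycine made up a median of 24.3% of the codons of a chain against 6.34% over 11004 tested genes with a coding sequence, and proline a median of 16.6% against 5.43%.

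Footprint counts on genes ran from 5924443 to 14000039 per library. As a check on the labels, SMARCB1 Dox had 2553 and 1750 SMARCB1 footprints, and all other groups had 0. GFP Dox replicate 1 stood apart in that 56.4% of its alignment entries were not unique, against 25.6% to 39.7% in the other 7 libraries, so results with Dox in the GFP line are also given without it. Levels are CPM, the counts divided by the TMM-scaled library total and scaled to a common size. Rhabdoid markers chosen for this line (VIM, KRT8, KRT18 and MUC1) summed to 4570 to 6778 CPM in the SMARCB1 line and 5188 to 5860 in the GFP line. VIM had 2435 to 3382 CPM in the SMARCB1 line and 1211 to 1621 in the GFP line, while the log2 difference of KRT8 and KRT18 was below 0 (-0.46 and -0.62 under DMSO, -0.94 and -0.79 under Dox), and none of the 4 was called. Collagens are also typical of fibroblasts: of 6 fibroblast markers, DCN and LUM were at 0 in every library, THY1 and FAP stayed below 0.21 CPM, and the sum of the list was 145 to 167 CPM in the SMARCB1 line and 261 to 329 in the GFP line.

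The 54 members differed widely in depth. No footprint was counted in any library for 9 of them, the chains COL10A1, COL14A1, COL21A1, COL23A1, COL25A1, COL4A3 and COL6A6 and the enzymes LOX and PLOD2. A count of 0 allows up to 3 counts, which is 0.208 to 0.500 CPM depending on the library and covers counting error only. A further 12 chains had 1 to 9 counts over all libraries together, among them COL4A1, COL6A3, COL8A1 and COL8A2. Another 6, COL9A2, COL5A3, COL4A2, COL5A1, COL4A4 and COL12A1, had 10 counts or more in all but did not pass edgeR's expression filter. The other 27, 19 chains and 8 enzymes, were tested together with all other genes that passed (11097 in all). COL4A2, the usual partner of COL4A1 in basement membranes, reached 6 counts at most in a library.

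COL11A1, a minor fibrillar chain of cartilage fibers, carried more footprints than any other chain in every library. Its level was 4599 and 5443 CPM in SMARCB1 Dox, 7191 and 6340 in SMARCB1 DMSO, 6931 and 7278 in GFP Dox, and 6323 and 7263 in GFP DMSO. The SMARCB1 Dox libraries were thus the lowest, and the other 6 overlapped. COL11A1 took 0.482% to 0.766% of all gene counts, which placed it between rank 1 and rank 5 among all genes, and it made up 56.1% to 65.0% of the counts on collagen chains. Per kilobase of coding sequence it averaged 856 CPM in SMARCB1 Dox, 1154 in SMARCB1 DMSO, 1212 in GFP Dox and 1159 in GFP DMSO. The next fibrillar chain per kilobase, COL3A1 in the GFP line and COL1A2 with COL3A1 in the SMARCB1 line, lay between 202 and 404 CPM in its group. All chains together took 0.780% to 1.36% of the gene counts of a library and the enzymes 0.124% to 0.209%.

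**Figure D1:**
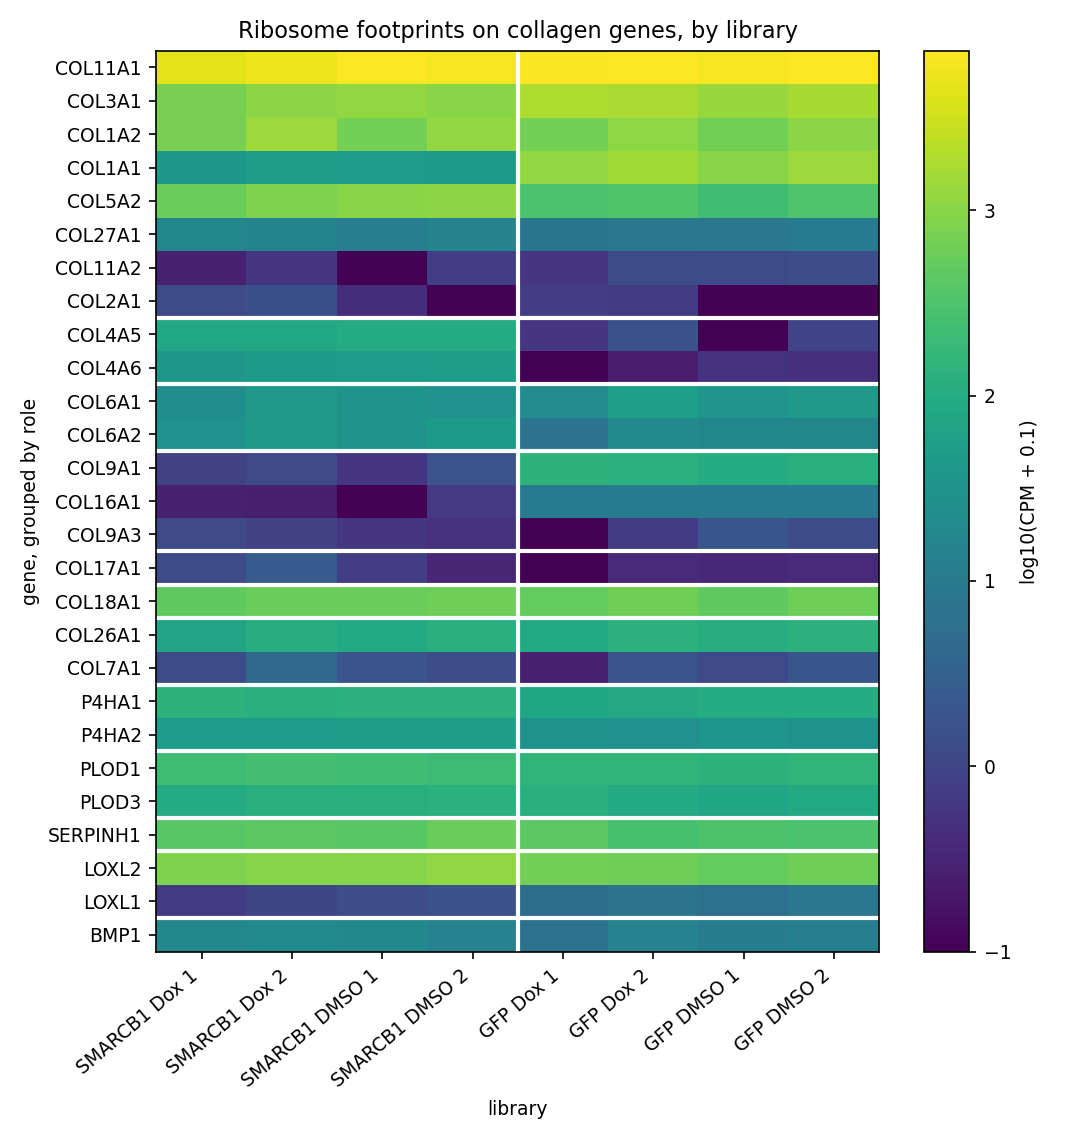
Level of the 27 tested collagen genes (vertical axis, grouped by role) in each of the 8 libraries (horizontal axis), as log10 of CPM plus 0.1 in color. COL11A1 is the brightest band in every library, COL9A1 and COL16A1 are dark in the 4 SMARCB1 libraries and COL4A5 and COL4A6 in the 4 GFP libraries, and COL1A1 is darker in the SMARCB1 than in the GFP libraries.

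The members were first compared between the SMARCB1 and GFP lines under DMSO, where neither line had SMARCB1 footprints, and then under Dox. A gene was called at an adjusted p-value below 0.05 (edgeR's quasi-likelihood test, Benjamini-Hochberg over all 11097 genes) and a fold change above 2. SE is an approximate standard error: the absolute log2 difference divided by the square root of the F statistic of that test. It can be too small for genes with few counts or differences near 0. For COL11A2 it was 0.37 for the difference between the Dox effects. The 2 effects themselves had larger values, 1.26 (SMARCB1 line) and 1.02 (GFP line). Under DMSO, 3 of the 27 tested members were called higher in the SMARCB1 line (COL4A5, COL4A6 and COL5A2) and 4 lower (COL1A1, COL9A1, COL16A1 and LOXL1), where 2.49% of all genes tested were called higher and 2.49% lower. Under Dox, 3 were called higher and 5 lower, the same 7 genes plus COL3A1, against 3.1% and 2.98% of all genes. An unadjusted p-value below 0.05 was reached by 13 members under DMSO and by 15 under Dox, and by 1546 and 2074 of the 11097 genes. The median log2 difference of the tested members was 0.39 under DMSO and 0.44 under Dox, where that of all genes was 0.02 and -0.01. For the 19 tested chains alone it was 0.07 under DMSO and 0.26 under Dox, with 10 above 0 and 9 below under either treatment. All 4 libraries of 1 line lay beyond all 4 of the other for 15 of the 27 members, 10 higher in the SMARCB1 line and 5 higher in the GFP line, and the same held for 17.6% of all genes tested. The DMSO and the Dox comparison share no libraries, but they share the estimate of the spread and set the same lines against each other.

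**Figure D2:**
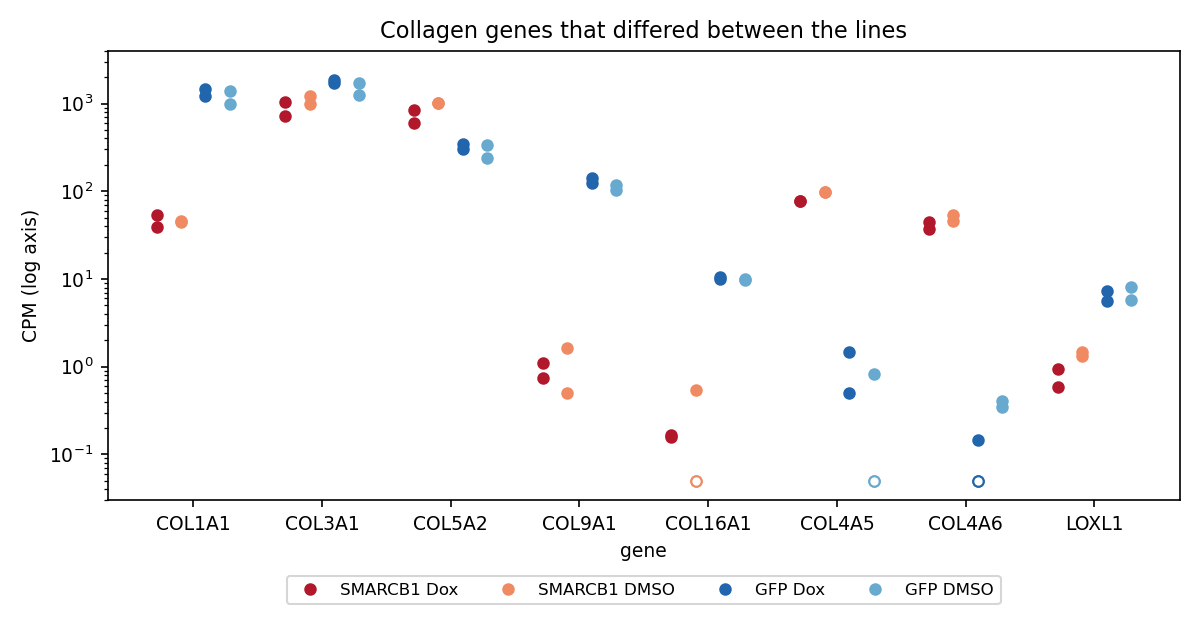
CPM on a log axis (vertical) of the 8 called collagen genes (horizontal) in each library, colored by group, with open circles at the bottom for libraries with 0 counts. The 4 SMARCB1 libraries lie below the 4 GFP libraries for COL1A1, COL3A1, COL9A1, COL16A1 and LOXL1, and above them for COL5A2, COL4A5 and COL4A6.

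Among the fibrillar chains, COL1A1 differed most between the lines. COL1A1 encodes the alpha 1 chain of type I collagen, the main protein of bone and skin, and lies on chromosome 17 of GRCh38 (50184101 to 50201632). It had 39.1 and 53.7 CPM in SMARCB1 Dox and 46.2 and 44.4 in SMARCB1 DMSO, against 1209 and 1480 in GFP Dox and 1001 and 1392 in GFP DMSO. The lines were far apart, and within a line Dox and DMSO libraries overlapped. The log2 difference between the lines was -4.72 under DMSO (SE 0.31, edgeR adjusted p = 3.0e-07) and -4.86 under Dox (SE 0.31, adjusted p = 1.8e-07). Its partner COL1A2, the alpha 2 chain of the same trimer, had 742 and 1387 CPM in SMARCB1 Dox, 715 and 1184 in SMARCB1 DMSO, 686 and 1094 in GFP Dox, and 684 and 1019 in GFP DMSO. Its lines overlapped, with a log2 difference of 0.16 under DMSO and 0.26 under Dox (SE 0.36 in both), and replicate 2 was the higher library in every group.

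COL3A1 and COL5A2 are neighbors on chromosome 2, on opposite strands with 19151 bases between them, and they went opposite ways. COL3A1, the homotrimeric type III chain of skin and vessels, had 723 and 1053 CPM in SMARCB1 Dox, 1205 and 999 in SMARCB1 DMSO, 1833 and 1725 in GFP Dox, and 1267 and 1707 in GFP DMSO. Every GFP library exceeded every SMARCB1 library. Under Dox its log2 difference was -1.003 (SE 0.27, edgeR adjusted p = 0.0422), just past the fold threshold, and under DMSO it was -0.43 (SE 0.27, adjusted p = 0.574) and was not called. The Dox call was lost without SMARCB1 Dox replicate 1 (-0.76), SMARCB1 Dox replicate 2 (-1.29) or GFP Dox replicate 1 (-0.96), and the adjusted p from edgeR ranged from 0.0212 to 0.463 over the libraries left out. It was also lost without either GFP DMSO library, which enter the shared estimate of the spread.

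COL5A2, a type V chain that joins type I fibrils, had 598 and 839 CPM in SMARCB1 Dox, 1009 and 1027 in SMARCB1 DMSO, 301 and 343 in GFP Dox, and 238 and 340 in GFP DMSO. All SMARCB1 libraries were higher than all GFP libraries. The log2 difference was 1.82 under DMSO (SE 0.27, edgeR adjusted p = 0.000582) and 1.16 under Dox (SE 0.27, adjusted p = 0.0156). The Dox call was lost without SMARCB1 Dox replicate 2 (0.90) and without GFP Dox replicate 1 (1.07), with an adjusted p from edgeR of 0.0115 to 0.245 over the libraries left out. COL5A1, the chain with which COL5A2 usually assembles, had 22 counts in all 8 libraries together, while COL11A1, its close relative, was abundant.

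The other tested fibrillar chains were low. COL27A1 had 12.2 to 17.1 CPM in the SMARCB1 line and 7.77 to 9.51 in the GFP line, with no overlap, and a log2 difference of 0.60 under DMSO and 0.999 under Dox (edgeR adjusted p = 0.0981). COL2A1, the main cartilage collagen, and COL11A2, the partner of COL11A1 in cartilage, had at most 15 and 19 counts in a library.

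The network-forming chains COL4A5 and COL4A6 had high levels in the SMARCB1 line and were near 0 in the GFP line. Both encode chains of type IV collagen, which form a joint trimer in some basement membranes. COL4A5 had 78.4 and 77.6 CPM in SMARCB1 Dox, 96.9 and 97.9 in SMARCB1 DMSO, 0.496 and 1.48 in GFP Dox, and 0 and 0.833 in GFP DMSO. COL4A6 had 37.5 and 44.8 CPM in SMARCB1 Dox, 45.8 and 53.0 in SMARCB1 DMSO, 0 and 0.148 in GFP Dox, and 0.411 and 0.347 in GFP DMSO. No library of 1 line came near the other line for either gene.

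For COL4A5 the log2 difference was 7.73 under DMSO (SE 0.59, edgeR adjusted p = 9.83e-07) and 6.26 under Dox (SE 0.57, adjusted p = 6.69e-06). For COL4A6 it was 6.99 under DMSO (SE 0.42, edgeR adjusted p = 1.25e-07) and 8.82 under Dox (SE 0.56, adjusted p = 1.80e-07). The size of these differences rests on few counts in the GFP line, while each call held with every library left out in turn. COL4A5 moved to 6.84 without GFP DMSO replicate 1 under DMSO and to 5.71 and 7.26 without GFP Dox replicate 1 or 2 under Dox, and COL4A6 moved to 8.003 without GFP Dox replicate 1. Without GFP DMSO replicate 2 for COL4A5, or GFP Dox replicate 2 for COL4A6, the remaining GFP library had 0 counts and the fitted value is no bound. By counts, COL4A6 had 732 in SMARCB1 Dox and 1 in GFP Dox. The library-scaled ratio was 513, with an exact 95% binomial interval of 91.8 to 20302. This interval is far wider than the SE of 0.56 implies, so that SE understates the uncertainty. In the DMSO groups it had 956 against 10, a ratio of 135 (73.0 to 282).

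COL4A6 and COL4A5 lie head to head on chromosome X, COL4A6 on the minus strand (108155607 to 108439497) and COL4A5 on the plus strand (108439838 to 108697545), with 340 bases between their starts. Because both genes differed in the same direction, most of that shared stretch is shown: the bases just before the COL4A5 start, chrX:108439588-108439837, plus strand, from RefSeq on GRCh38.p14.
COL4A5 upstream: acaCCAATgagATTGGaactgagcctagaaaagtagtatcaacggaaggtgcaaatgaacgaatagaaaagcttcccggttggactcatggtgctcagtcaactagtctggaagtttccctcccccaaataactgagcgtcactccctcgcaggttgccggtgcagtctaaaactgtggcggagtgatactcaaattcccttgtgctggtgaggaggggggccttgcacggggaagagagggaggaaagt
Capitals mark CCAAT 247 bases before the start and its reverse complement ATTGG 239 bases before it. TATAAA (the TATA box), CCAAT (the CCAAT box) and GGGCGG (the GC box) were searched on both strands, and the other 2 motifs were not found in this window, which holds 8 CpG and 51.2% G and C. The CCAAT box occurred in 32.0% of the 35116 promoters of the table on either strand, the TATA box in 10.7% and the GC box in 42.6%. Of 55 entries for 40 of the 54 members, 16 held the CCAAT box, 9 the TATA box and 29 the GC box. A match is a description of the letters. The other type IV chains are also arranged in such pairs, with 170 bases between COL4A4 and COL4A3 on chromosome 2, and COL4A1 and COL4A2 overlapping on chromosome 13 (a gap of -1346 bases). Those 4 genes had 0 to 24 counts over all libraries.

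Type VI collagen is built from COL6A1, COL6A2 and a further chain, commonly COL6A3. COL6A1 had 24.1 and 40.2 CPM in SMARCB1 Dox, 32.3 and 28.3 in SMARCB1 DMSO, 22.0 and 55.6 in GFP Dox, and 34.6 and 42.4 in GFP DMSO. COL6A2 had 28.4 and 42.5 CPM in SMARCB1 Dox, 33.0 and 44.1 in SMARCB1 DMSO, 7.11 and 20.4 in GFP Dox, and 16.9 and 16.9 in GFP DMSO. COL6A1 overlapped between the lines and COL6A2 did not. The log2 difference of COL6A2 was 1.19 under DMSO (SE 0.39, edgeR adjusted p = 0.113) and 1.35 under Dox (SE 0.40, adjusted p = 0.0622), so it was not called. Under Dox it was called by DESeq2 (1.36, adjusted p = 0.0158), without a filter on low counts (1.37) and with the replicate number as a block (1.42). Its adjusted p ranged from 0.000874 to 0.157 over the settings other than left-out libraries. With a library left out, its log2 difference under Dox ran from 0.79, without GFP Dox replicate 1, to 2.31, without GFP Dox replicate 2. Under DMSO it was called without a filter (1.18), with the block (1.15), in the fit of the compared groups alone (1.20) and without either GFP Dox library, with an adjusted p of 0.00551 to 0.235 over the settings. COL6A3 had at most 2 counts in a library.

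The FACIT chains COL9A1 and COL16A1 were high in the GFP line and near 0 in the SMARCB1 line. COL9A1, a type IX chain that decorates cartilage fibrils, lies on chromosome 6 (70216040 to 70303084). It had 0.753 and 1.11 CPM in SMARCB1 Dox and 0.500 and 1.64 in SMARCB1 DMSO, against 140 and 125 in GFP Dox and 104 and 118 in GFP DMSO. The log2 difference was -6.50 under DMSO (SE 0.38, edgeR adjusted p = 1.23e-07) and -7.20 under Dox (SE 0.40, adjusted p = 7.89e-08). It was -7.76 under DMSO without SMARCB1 DMSO replicate 2, which held 21 counts against 3 in replicate 1. COL19A1, which ends 3571 bases from COL9A1 on the other strand, had 3 and 6 counts in GFP DMSO and 0 in the other 6 libraries.

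COL16A1, a FACIT chain found in several matrices, had 0.167 and 0.158 CPM in SMARCB1 Dox, 0 and 0.545 in SMARCB1 DMSO, 10.4 and 10.1 in GFP Dox, and 9.70 and 10.0 in GFP DMSO. The GFP libraries lay close together and far above the SMARCB1 libraries. The log2 difference was -4.77 under DMSO (SE 0.68, edgeR adjusted p = 0.000359) and -5.85 under Dox (SE 0.77, adjusted p = 0.000196). By counts, 131 in GFP Dox against 3 in SMARCB1 Dox gave a library-scaled ratio of 62.3, with an exact 95% binomial interval of 20.8 to 306. Under DMSO the value was -4.14 without SMARCB1 DMSO replicate 1, and without replicate 2 the remaining library had 0 counts. The partners of COL9A1 in type IX collagen were low, with at most 18 counts of COL9A2 and 23 of COL9A3 in a library.

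Chains of the other classes showed no called difference between the lines. COL18A1, the basement membrane chain that yields endostatin, had 479 to 617 CPM in the SMARCB1 line and 476 to 655 in the GFP line. COL26A1 had 68.9 to 113 and 89.3 to 133 CPM. Both overlapped between the lines, with log2 differences of 0.14 and -0.21 under DMSO and -0.14 and -0.35 under Dox (SE 0.25 for COL18A1 and 0.28 for COL26A1). COL7A1, the anchoring fibril chain, and COL17A1, a transmembrane chain of hemidesmosomes, had at most 28 and 15 counts in a library.

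**Figure D3:**
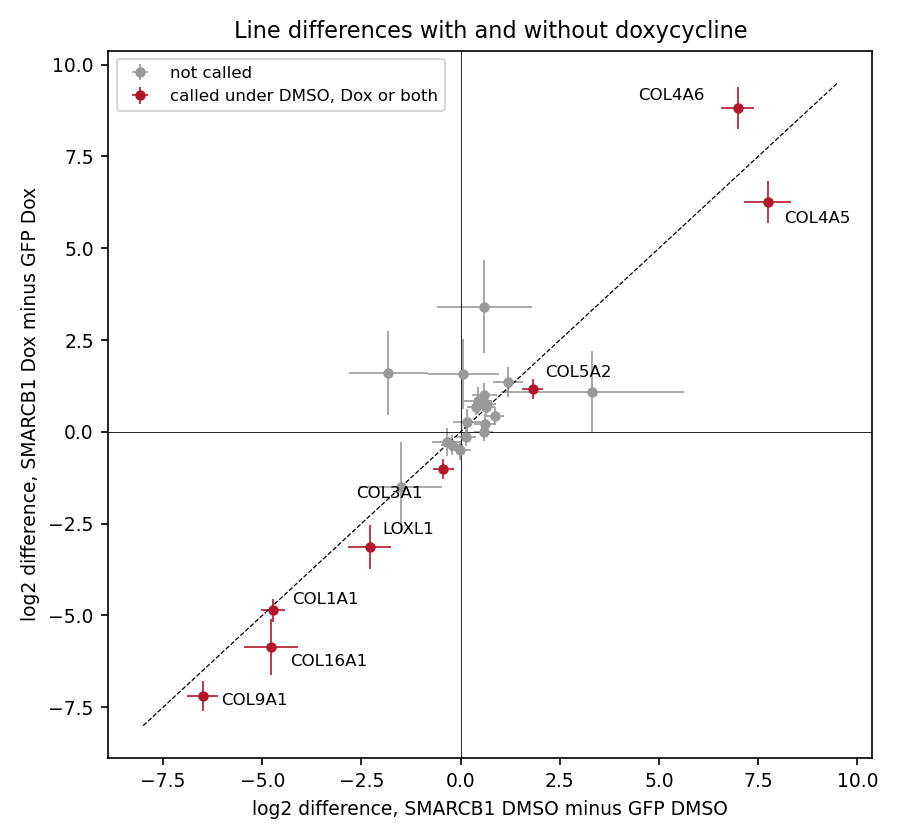
Log2 difference between the SMARCB1 and GFP lines under DMSO (horizontal axis) and under Dox (vertical axis) for the 27 tested members, with the line of equal values dashed. Bars are the SE derived from the F statistic, which can be too small at low counts. Called genes are in red: COL4A5, COL4A6 and COL5A2 lie at the upper right and COL1A1, COL9A1, COL16A1, LOXL1 and COL3A1 at the lower left.

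Under DMSO the log2 differences of the tested enzymes ran from -2.29 to 0.85, and those of the tested chains from -6.50 to 7.73. Of the 8 tested, 0 were called higher and 1 lower in the SMARCB1 line under either treatment, while 7 had a log2 difference above 0 under DMSO and 6 under Dox, with medians of 0.60 and 0.55. The called one was LOXL1, a lysyl oxidase known for its role in elastic fibers. It had 0.585 and 0.951 CPM in SMARCB1 Dox, 1.33 and 1.48 in SMARCB1 DMSO, 5.62 and 7.39 in GFP Dox, and 5.76 and 8.19 in GFP DMSO, so the lines did not overlap. The log2 difference was -2.29 under DMSO (SE 0.54, edgeR adjusted p = 0.0200) and -3.13 under Dox (SE 0.60, adjusted p = 0.00422). Leaving out any 1 of the 4 DMSO libraries ended the DMSO call (-2.52 to -2.01, adjusted p from edgeR 0.0754 to 0.287), and leaving out SMARCB1 Dox replicate 1 ended the Dox call (-2.76, adjusted p 0.0993 within a range of 0.00336 to 0.0993).

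LOXL2, which cross-links collagen IV among other substrates, had the most footprints of the enzymes. It had 817 and 970 CPM in SMARCB1 Dox, 958 and 1130 in SMARCB1 DMSO, 703 and 614 in GFP Dox, and 527 and 628 in GFP DMSO. The SMARCB1 line was higher in every library, but the log2 difference of 0.85 under DMSO (SE 0.25, edgeR adjusted p = 0.0622) and 0.44 under Dox (SE 0.24, adjusted p = 0.363) was not called. Its coding sequence shares 120 bases with that of ENTPD4 on the same strand, where reads cannot be assigned to either gene. Per kilobase of coding sequence LOXL2 averaged 346 CPM in SMARCB1 Dox, 404 in SMARCB1 DMSO, 255 in GFP Dox and 223 in GFP DMSO, near the 325, 374, 279 and 245 CPM of SERPINH1.

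The hydroxylases PLOD1, P4HA1 and P4HA2 were higher in all 4 SMARCB1 libraries as well. PLOD1 had 219 to 258 CPM in the SMARCB1 line and 142 to 154 in the GFP line. P4HA1 had 122 to 137 against 75.2 to 103 CPM, and P4HA2 had 48.3 to 53.5 against 28.1 to 36.5 CPM. None passed the test: the log2 difference was 0.65 for PLOD1, 0.39 for P4HA1 and 0.66 for P4HA2 under DMSO, and 0.67, 0.68 and 0.75 under Dox, with SEs of 0.22 to 0.24 and adjusted p-values from edgeR of 0.0922 to 0.507. BMP1 had 14.5 to 20.4 CPM in the SMARCB1 line and 6.78 to 14.2 in the GFP line. PLOD3 (log2 difference 0.58 under DMSO and -0.02 under Dox) and the chaperone SERPINH1 (0.61 and 0.22) overlapped between the lines, and SERPINH1 stood at 390 to 556 CPM in the SMARCB1 line and 274 to 436 in the GFP line.

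Without GFP Dox replicate 1, the library with the high share of non-unique alignments, 2 members were called higher (COL4A5 and COL4A6) and 4 lower (COL1A1 at -5.00, COL9A1 at -7.12, COL16A1 at -5.83 and LOXL1 at -3.32) under Dox.

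Partner chains of a trimer were set against each other per kilobase of coding sequence within each library. The ratio of COL1A1 to COL1A2 was 0.0412 ± 0.00893 in SMARCB1 Dox and 0.0460 ± 0.0173 in SMARCB1 DMSO, against 1.40 ± 0.261 in GFP Dox and 1.28 ± 0.0629 in GFP DMSO (SD, n = 2). The classical type I trimer holds more alpha 1 than alpha 2 chain, and footprints of the alpha 1 chain were the fewer in the SMARCB1 line. The ratio of COL6A1 to COL6A2 was 0.949 ± 0.0753 in SMARCB1 Dox and 0.858 ± 0.252 in SMARCB1 DMSO, against 3.08 ± 0.276 in GFP Dox and 2.41 ± 0.334 in GFP DMSO (SD, n = 2). For both pairs the libraries of the lines did not overlap. The ratio of COL4A5 to COL4A6 was 1.90 ± 0.251 in SMARCB1 Dox and 1.97 ± 0.187 in SMARCB1 DMSO (SD, n = 2) and was not formed in the GFP line, where COL4A6 had at most 5 counts in a library. These ratios are a description without a test.

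**Figure D4:**
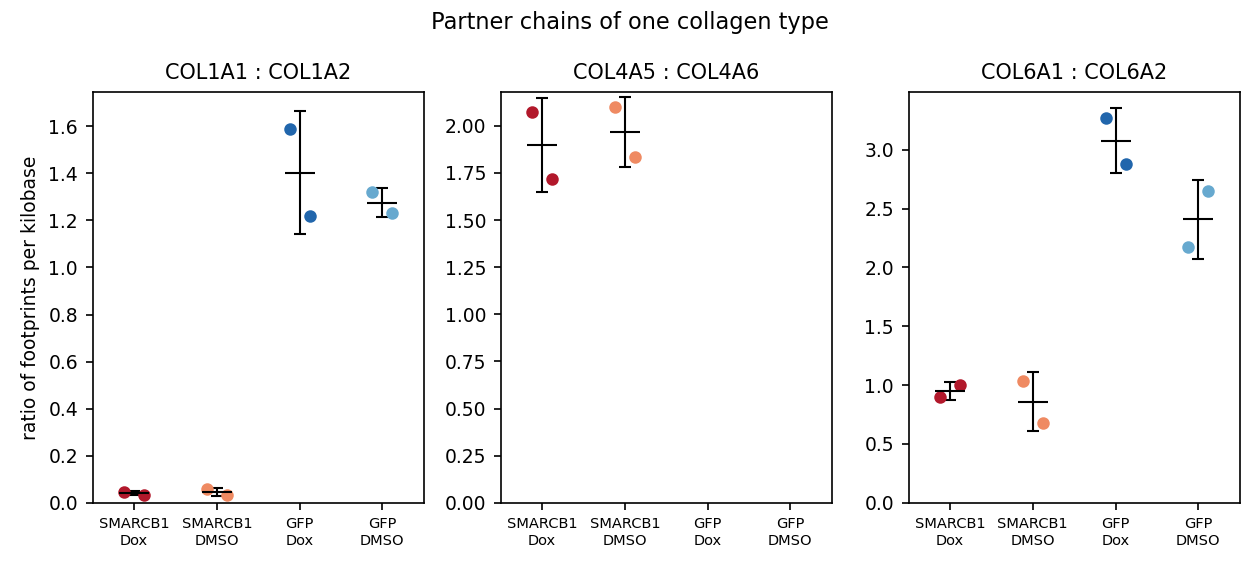
Ratio of footprints per kilobase of coding sequence (vertical axis) between partner chains in each library, by group (horizontal axis), with the mean and the SD of 2 libraries as bars. COL1A1 to COL1A2 is 0.0412 and 0.0460 in the SMARCB1 groups and 1.40 and 1.28 in the GFP groups, and the panel for COL4A5 to COL4A6 has values for the SMARCB1 line alone.

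Dox itself called no member in either line. In the SMARCB1 line, where 0.018% of all genes tested were called, 0 of the 27 members passed edgeR's quasi-likelihood test, 1 had an unadjusted p-value below 0.05 (552 of the 11097 genes), and DESeq2 called 0 (26 genes higher and 8 lower). Their median log2 change was -0.17 against -0.02 over all genes, with 10 above 0 and 17 below. In the GFP line 0% of all genes and 0 members were called by edgeR, and DESeq2 called 0 genes, with 1 member and 240 genes below an unadjusted p of 0.05 in edgeR, a median of 0.05, and 15 members above 0 and 12 below. The difference between the 2 Dox effects was called for 0% of all genes by edgeR and for 1 gene by DESeq2, for 0 members by either tool, and 1 member and 443 genes were below an unadjusted p of 0.05 in edgeR. Each Dox comparison shares its libraries with the comparisons of the lines.

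Among the abundant fibrillar chains, in the SMARCB1 line COL11A1 had a log2 change of -0.43 with Dox (SE 0.26) and COL5A2 of -0.50 (SE 0.26), against 0.07 and 0.15 in the GFP line (SE 0.26 for both), and the adjusted p-values from edgeR were 1. Both Dox libraries lay below both DMSO libraries for these 2 genes in the SMARCB1 line, and also for COL4A5, COL4A6, LOXL1, P4HA2 and PLOD3. Of the tested members, COL2A1, COL9A3, COL17A1 and COL27A1 had both Dox libraries above both DMSO libraries in the SMARCB1 line. Tested members separated in the GFP line as well. There both Dox libraries lay above for COL2A1, COL3A1, COL9A1, COL16A1, PLOD1 and PLOD3, and below for COL4A6, COL9A3 and P4HA1. Such a separation of 2 libraries from 2 carries little weight, and its share over all genes was not counted. For COL5A2 the difference between the Dox effects was -0.66 (SE 0.37, edgeR adjusted p = 0.981) and for PLOD3 it was -0.60 (SE 0.33, adjusted p = 0.981). COL1A1 changed by 0.03 with Dox in the SMARCB1 line and by 0.17 in the GFP line (SE 0.27 and 0.26).

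The largest log2 changes with Dox belonged to chains with few counts. COL2A1 had 15 and 9 counts in SMARCB1 Dox and 2 and 0 in SMARCB1 DMSO, and 4 and 4 in GFP Dox and 0 and 0 in GFP DMSO. It was thus higher with Dox in both lines. The library-scaled ratio was 12.4 in the SMARCB1 line (exact 95% binomial interval 3.07 to 108) and, for 8 counts against 0 in the GFP line, the lower limit of the same interval was 3.54. Neither was called, with an unadjusted p of 0.0289 and 0.0136 and an adjusted p of 0.914 and 1 in edgeR's quasi-likelihood test. COL17A1 had 15 and 15 counts in SMARCB1 Dox and 4 and 3 in SMARCB1 DMSO, a ratio of 4.42 (1.90 to 11.9), and 0 to 4 in the GFP line. Its change in the SMARCB1 line was not called (unadjusted p = 0.0672 in edgeR's quasi-likelihood test). These intervals pool the libraries of a group and leave out the spread between them. COL9A3 had 0 and 4 counts in GFP Dox and 23 and 18 in GFP DMSO, a ratio of 0.202 (0.0526 to 0.559), and 13 and 5 against 3 and 5 in the SMARCB1 line. Its change in the GFP line was not called (unadjusted p = 0.0535 in edgeR's quasi-likelihood test). Its difference between the Dox effects was 3.42 (SE 1.51, unadjusted p = 0.0401, edgeR adjusted p = 0.981). Without GFP Dox replicate 1 edgeR called 0 members in the GFP line, with 3 below an unadjusted p of 0.05. Without GFP Dox replicate 2, which leaves replicate 1 alone, it again called 0 members, with 7 below an unadjusted p of 0.05, while 101 genes were called higher and 46 lower.

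**Figure D5:**
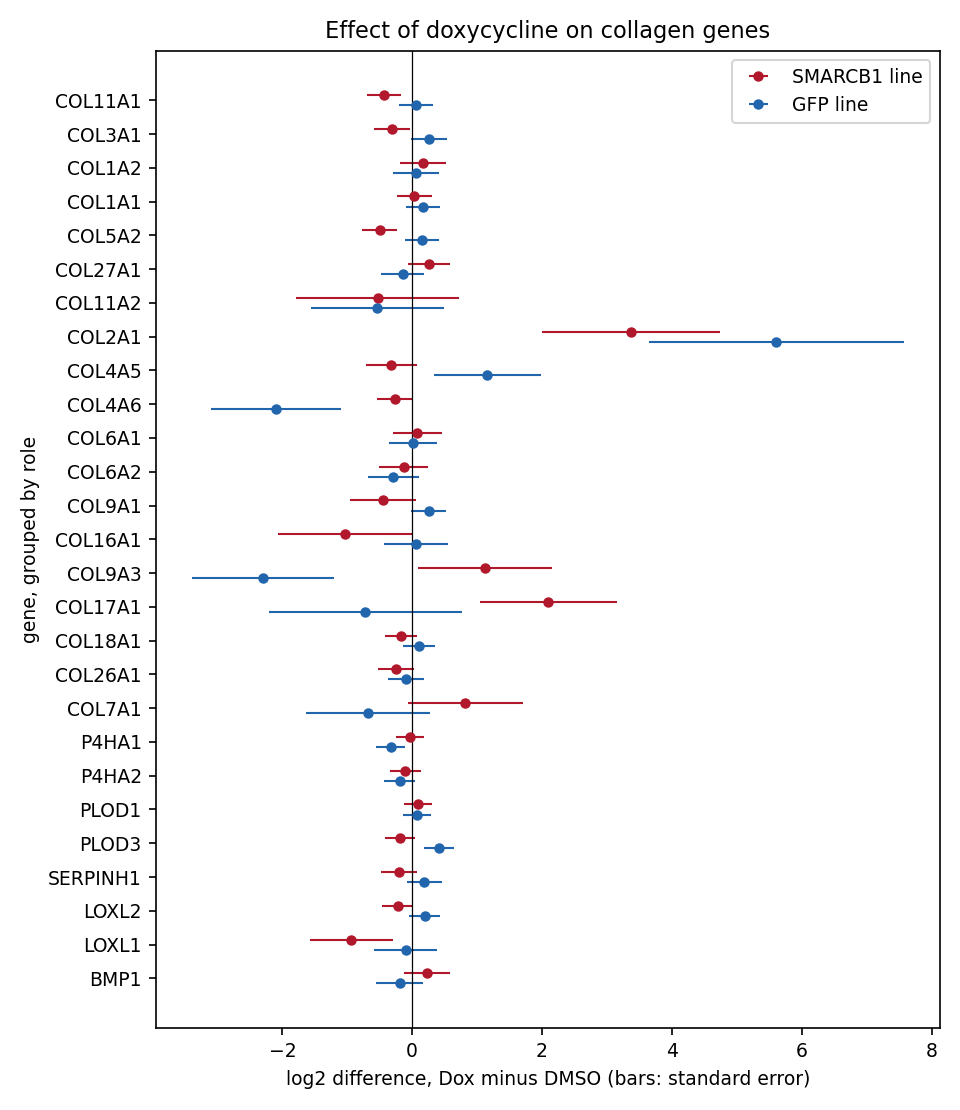
Log2 change with Dox (horizontal axis) of the 27 tested members (vertical axis) in the SMARCB1 line (red) and the GFP line (blue). Bars are the SE derived from the F statistic, which can be too small at low counts or near 0. COL11A1, COL5A2 and the enzymes other than LOXL1 lie near 0 with short bars, and COL2A1, COL9A3 and COL17A1 lie farther out with long bars.

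Other genes of collagen handling were read from a list of 44, of which 35 were tested. Under DMSO 3 were called higher in the SMARCB1 line and 3 lower, against 2.49% and 2.49% of all genes tested. Under Dox 4 were called higher and 2 lower, against 3.1% and 2.98% of all genes tested. Dox against DMSO called 0 of them in either line. P3H2, a prolyl 3-hydroxylase acting on type IV collagen among others, was higher by 1.26 on the log2 scale under DMSO and by 1.34 under Dox. COLGALT2, which glycosylates hydroxylysine, was higher by 2.17 and 1.70, and the collagenase MMP1 by 3.19 and 2.99. Lower were CREB3L1, a transcription factor with COL1A1 among its known targets (-2.15 and -1.51), and PCOLCE, which enhances the cleavage of procollagen by BMP1 (-2.09 and -2.18). The collagen receptor DDR1 was called lower under DMSO (-1.11; -0.67 under Dox, not called), and TIMP2, an inhibitor of metalloproteinases, was called higher under Dox (1.06; 0.77 under DMSO, not called). The SEs of the called differences ran from 0.27 to 0.53 and their edgeR adjusted p-values from 0.000135 to 0.0424.

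Cell type markers also differed between the lines beside these collagen genes. PDGFRA, a fibroblast marker, had 0.167 to 3.17 CPM in the SMARCB1 line and 37.7 to 56.4 in the GFP line, and was called lower in the SMARCB1 line under DMSO and under Dox. PDGFRB had 143 to 166 and 213 to 273 CPM. Of 5 kidney epithelium markers PAX8 was at 0 in every library, and the sum of the list was 0.333 to 1.56 CPM in the SMARCB1 line and 4.44 to 9.31 in the GFP line. PAX2 had 0 to 0.857 CPM in the SMARCB1 line and 3.95 to 8.87 in the GFP line. It was called lower in the SMARCB1 line under DMSO (log2 difference -3.40) and under Dox (-5.05). Endothelial markers summed to 0.834 to 1.58 and 0.347 to 1.07 CPM. Of the 2 blood markers PTPRC was at 0 throughout. CD74 had 21.8 to 43.7 CPM in the SMARCB1 line and 25.8 to 36.8 in the GFP line, and was not called. The part of these differences in the results on collagen genes was not tested. In such bulk libraries fewer cells that use a gene and fewer footprints per cell cannot be told apart, and without the matched RNA-seq, which was not analysed here, mRNA level and translation cannot be separated.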

How the data were processed

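Ribosome-protected fragments of G401 cells were sequenced in 4 groups of 2 libraries. The authors used RiboLace to pull down translating ribosomes, aligned reads to hg38 with STAR, and counted them with HTSeq (intersection-strict, coding sequences, GENCODE annotation 42). The deposited values are raw counts per gene. The strand option, adapter handling and rRNA removal are not given in the sources used here. Entries that name no gene were left out of totals and tests: reads on no feature made up 36.6% to 45.9% and ambiguous reads 1.29% to 1.74% of unique alignments. Symbols, positions and coding sequences come from GENCODE annotation 44 (GRCh38), matched by gene ID, and promoters from RefSeq.

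Counts were filtered with filterByExpr by group, scaled with TMM and tested with glmQLFit and glmQLFTest over all 8 libraries with 1 term per group (R 4.3.3, edgeR 4.0.16, limma 3.58.1). Alternatives were RLE size factors, library size only, DESeq2 1.42.0, no filter beyond 1 count in all, a minimum of 10 counts in every library, a fit of the compared groups alone, a block for the replicate number, leaving out each library and, for ratios, another coding length. The test was also run on counts simulated with the spread fitted to these data, and no result here rests on that run. The SE was calculated back from the log2 difference and the F statistic of the test. Depth sets the precision: intervals and the limit of 3 counts cover counting error only. Replicates differed by more than sampling noise (chi-square per degree of freedom 14.7 to 44.8). Named are the 12 members with the highest mean CPM, called members, the 3 smallest p-values per comparison, partner chains, and called genes of the other list. COL19A1, COL27A1, BMP1 and further members outside this rule were named after their values were seen. The members and lists were chosen with earlier results of these data known.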

Additional observations from a re-analysis of the deposited data

How the results depend on the processing

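Of the values of single genes and partner chain ratios under the alternatives, 532 stayed the same, 14 fell short of the threshold, 7 newly passed it and 17 changed sign. A gene stayed the same if it kept its direction and its side of the threshold, and a ratio if it moved by less than its SD. Requiring at least 10 counts in every library left 1 member called higher (COL5A2) and 1 lower (COL1A1) under DMSO, and 1 higher and 1 lower (the same genes) under Dox, because this filter removes COL4A5, COL4A6, COL9A1, COL16A1 and LOXL1. With a library of the compared groups left out, the members called higher numbered 3 to 3 and lower 3 to 3 under DMSO. Under Dox they numbered 2 to 5 higher (5 without GFP Dox replicate 2, which adds COL6A2 and BMP1) and 3 to 5 lower (3 without SMARCB1 Dox replicate 1, which ends COL3A1 and LOXL1). Counts of members called with Dox stayed at 0 under every alternative run. Replicate numbers are shared between groups, but with 2 libraries each and deviations that correlate at 0.0469 to 0.364 they were not taken as pairs. With the replicate block 4 members were called higher and 4 lower under DMSO and 4 and 5 under Dox, adding COL6A2 in both. The fit of only the compared groups could not be made for the difference between the Dox effects. Uncalled values changed sign when libraries were left out, and the cause was not tested. Under DMSO the range was -0.10 to 0.10 for COL11A1, -0.16 to 1.30 for COL17A1, -0.032 to 0.33 for COL18A1 and -0.25 to 0.48 for COL1A2. Under Dox it was -0.30 to 0.052 for COL18A1, -0.26 to 0.64 for COL1A2, -0.80 to 0.54 for COL6A1, -0.18 to 0.17 for PLOD3 and -0.075 to 0.59 for SERPINH1. PLOD3 under Dox went to 0.13 with library size only and to 0.0069 without a filter. With library size only, the median of all genes moved from 0.02 to -0.05 between the lines under DMSO, from -0.01 to 0.11 under Dox, from -0.02 to 0.09 for Dox in the SMARCB1 line, from 0.02 to -0.06 in the GFP line and from -0.03 to 0.16 for the difference, so values within these shifts have no direction. COL3A1 under Dox was not called with library size only, without a filter, with at least 10 counts in every library, or with only the groups compared (-1.0004 to -0.87).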
